A study of Mus musculus with 4 samples.

Results

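The genes described here encode the proteasome, the protease that degrades proteins marked with ubiquitin, in 4 populations of sorted mouse CD4+ CD8- thymocytes. They were taken from the array's annotation as probe sets with a single symbol that starts with Psm, a letter from a to g and a number, leaving out the immunoproteasome genes Psmb8 and Psmb9. These letters matched 47 of the 18193 genes on the array. Psmc3ip and Psme3ip1 encode no proteasome subunit and were set aside, Psme3ip1 only once the annotation had been seen, which left 45 members. Each gene was read on 1 probe set, the one with the highest mean of the deposited values over the 4 arrays, so the choice looked at signal and not at differences between arrays. Psme2, the partner of Psme1, is on the array only through a probe set with several symbols and is not a member.

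Gene expression was measured on Affymetrix mouse 430 2.0 arrays with 1 array per population, from female mice aged 6 to 8 weeks. Mice homozygous for a knockin allele, Foxp3(gfp/gfp), make a GFP-Foxp3 fusion protein in place of Foxp3, the transcription factor of regulatory T cells. Their GFP+ cells are called Foxp3-fusion here. GFP+ cells of Foxp3(gfpko/wt) females, called Foxp3-null here, use the Foxp3 locus from a GFP-tagged knockout allele, and these mice also carry a wild-type allele that is used in other cells. GFP- CD25+ and GFP- CD25- cells came from Foxp3(gfp/gfp) mice, so every array but the Foxp3-null one came from mice in which all Foxp3 is the fusion protein. The Foxp3-null mice were at backcross 2 from 129/Sv to C57BL/6 and the others at backcross 4 to 6, so genotype, strain background and array cannot be told apart for that population. The description of the Foxp3-null sample repeats that of the fusion mice, so its genotype rests on its title and strain label. Cells were enriched with magnetic beads and sorted by flow cytometry, and their RNA was amplified in 2 rounds. The sources used here do not say how many mice were pooled. With a single array in each population, no difference below has a replicate check, an error or a p-value.

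The proteasome consists of a barrel-shaped core particle and of caps that open it. The core, called 20S, has outer rings of alpha subunits (Psma genes) that gate the entry and inner rings of beta subunits (Psmb genes), of which Psmb5, Psmb6 and Psmb7 cut peptide bonds. The 19S cap holds a ring of ATPases (Psmc genes), which unfold substrates. It also holds non-ATPase subunits (most Psmd genes), some of which bind ubiquitin chains or remove them. Psmd5, Psmd9 and Psmd10 encode chaperones of cap assembly and were counted with the 19S genes by their symbols. Psme genes encode other caps, called activators, that open the core without ubiquitin, Psmf1 encodes the inhibitor-like protein PI31, and Psmg genes encode chaperones that assemble the core. In lymphocytes interferon-inducible subunits can replace the standard proteolytic ones, and the peptides that result are loaded on MHC class I molecules.

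Values are log2 signals after quantile normalization, and a signal of 5.15 log2, set from probe sets of genes chosen as silent in thymocytes, was used as the floor. Lower signals were set to the floor before a difference was taken, and a fold with 1 side there is given as "at least". Genes were measured when their mean over the 4 arrays exceeded the floor, which 6357 genes did. Foxp3 itself read 8.82 log2 in Foxp3-fusion, 7.27 in Foxp3-null, 2.88 in GFP- CD25+ and 2.76 in GFP- CD25- cells, in the order of the GFP sort. The CD4 T cell markers on the array, 7 of them, were above the floor on every array, whereas Cd8a and Cd8b1 were at the floor on all 4. Markers of B cells, of macrophages and dendritic cells and of NK cells were at the floor except for 1 of 4 and 2 of 6 on the Foxp3-null array (Ms4a1, and Csf1r with Adgre1) and 1 of 2 NK markers on the GFP- CD25- array. Of 5 thymic epithelial markers only Epcam was above the floor, on every array. The 3 markers of dividing cells had a mean signal of 7.96 log2 in Foxp3-fusion cells, 9.35 in Foxp3-null cells, 7.82 in GFP- CD25+ cells and 7.37 in GFP- CD25- cells. The control probe sets of actin for the 3' end and the middle of the transcript were 3.23 log2 apart on the Foxp3-fusion array, 4.17 on the Foxp3-null array, 5.81 on the GFP- CD25+ array and 4.94 on the GFP- CD25- array. Gapdh had gaps of 2.10, 2.68, 4.49 and 3.73 in that order, so both GFP+ arrays had smaller gaps than both GFP- arrays. The part of dividing cells, of other cell types and of these gaps in the results below was not tested. In sorted bulk cells a smaller number of cells of a kind and less RNA per cell cannot be told apart.

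Of the 45 members, 40 were measured and 37 were above the floor on all 4 arrays. Mean signals of the 40 ran from 5.26 log2 for Psmd7 to 12.40 for Psmc2, with a median of 7.66, against 7.42 over all measured genes. Members under the floor on average were Psma8, Psmb2, Psmb11, Psmd8 and Psmg4. Psma8, known from the testis, read 2.98, 2.92, 2.94 and 2.95 log2 in Foxp3-fusion, Foxp3-null, GFP- CD25+ and GFP- CD25- cells. Psmb11, the subunit of cortical thymic epithelium, read 2.77, 2.73, 2.72 and 2.73 in the same order. These 2 genes were flat at low signal on each array. Psmb2 and Psmd8 encode subunits of every proteasome, yet Psmb2 read 5.0, 3.37, 3.20 and 3.57 log2 and Psmd8 read 4.06, 2.47, 2.40 and 2.52. The Foxp3-fusion array was the highest for both, still under the floor. A probe set at the floor therefore does not show that a gene is silent in these cells.

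**Figure D1:**
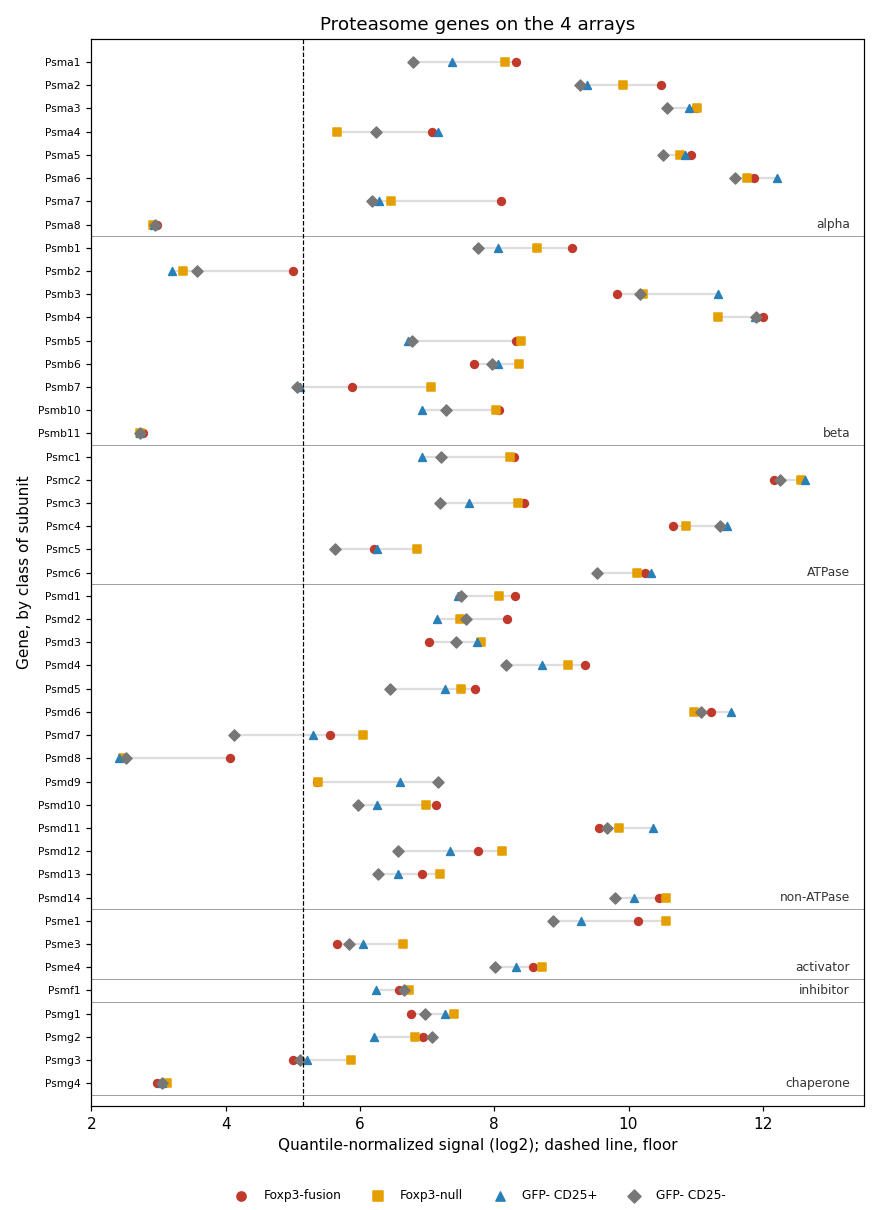
Quantile-normalized log2 signal (x axis) of the 45 proteasome genes (y axis, by class of subunit) on each of the 4 arrays, 1 point per array, with the floor of 5.15 log2 as a dashed line. GFP- CD25- is the lowest array for 20 of the 40 measured genes (23.7% of all measured genes), and 5 genes average under the floor.

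Across the 40 measured members the GFP- CD25- array was the one with the lowest signal most often. It was lowest for 20 members, against 23.7% of all measured genes. The Foxp3-fusion array was lowest for 10 (37% of all genes), the GFP- CD25+ array for 7 (20.1%) and the Foxp3-null array for 3 (19.2%). The highest signal fell on the Foxp3-fusion array for 14 members, against 25.6% of all genes, on the Foxp3-null array for 16 (38.1%), on the GFP- CD25+ array for 8 (21.5%) and on the GFP- CD25- array for 2 (14.8%). These positions depend on the scale. With the values as deposited the Foxp3-fusion array was highest for 26 members, but also for 50.8% of all genes. The lowest array as deposited was Foxp3-fusion for 3 members (17.4% of all genes), Foxp3-null for 10 (36.1%), GFP- CD25+ for 11 (28.4%) and GFP- CD25- for 16 (18.1%).

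Foxp3-fusion cells had more signal than GFP- CD25- cells for most proteasome genes. Among 40 measured members 12 reached 2-fold upward (10.5% of all measured genes did) and Psmd9 alone reached 2-fold downward (5.91% of all genes), with Psmc4 and Psmd3 next at -0.70 and -0.40 log2. The median log2 difference of the members was 0.62 with an interquartile range of 1.25, against a median of -0.05 and a range of 0.82 over all measured genes. Both main blocks had a median above 0, at 0.77 for 14 core genes and 0.65 for 19 genes counted with the 19S cap. The 3 activator genes had 0.57. The inhibitor gene Psmf1 and the chaperone genes Psmg1 and Psmg2 differed by -0.07, -0.21 and -0.14 log2. On the deposited scale, where 6464 genes were measured, 16 members reached 2-fold upward and 1 downward, and among all genes 1022 and 245 did, against 668 and 376 after normalization. There the median of all genes shifted to 0.18 and that of the members to 0.87, so relative to all genes the members stood at 0.68 on the deposited scale and 0.67 after normalization.

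In Foxp3-null over GFP- CD25- cells, 10 of the 40 members reached 2-fold upward (10.9% of all genes) and Psmd9 alone downward (8.04% of all genes), followed by Psma4 and Psmb4 at -0.58 and -0.56 log2. Psmb7, counted among the 10, was under the floor on both GFP- arrays. It was measured only through the GFP+ arrays, so its direction was fixed by that filter. The members' median was 0.62 log2, against 0.23 over all genes, and relative to all genes it was 0.39. The 19S genes had a median of 0.77, core genes of 0.42 and activator genes of 0.81. With deposited values the members' median was 0.28, against -0.06 over all genes, and 5 members reached 2-fold upward (5.24% of all genes). Psmc1, Psmc3, Psmc5, Psmd5 and Psmd10 reached it only after normalization. Among all genes 339 were higher and 855 lower by that much as deposited, against 693 and 511 after normalization. The count of members past 2-fold thus depended on the scale, while their distance from all genes was 0.33 there.

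GFP- CD25+ cells differed little from GFP- CD25- cells in these genes. Psmb3 was the 1 member of 40 to reach 2-fold upward (4.31% of all genes), and 0 reached it downward (4.51% of all genes). Psma4 and Psmd5 were next above, at 0.92 and 0.82 log2, and Psmg2, Psmd9 and Psmd2 were furthest below, at -0.86, -0.57 and -0.43. Among all genes 174 were higher and 502 lower as deposited, against 274 and 287 after normalization. The members' median was 0.30 with an interquartile range of 0.41, against 0.13 and 0.63 over all genes, and 0.06 against -0.06 on the deposited scale. The proteasome genes therefore lay close together in this comparison, at a small distance from the bulk of genes. Cytosolic ribosomal protein genes had a median of 0.10 and a range of 0.44, and respiratory chain genes 0.30 and 0.48. A similarly narrow range was thus not particular to the proteasome.

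Between both GFP+ populations, Foxp3-fusion over Foxp3-null, the members had a median of -0.01 log2, against -0.17 over all genes. Psma4 and Psma7 reached 2-fold upward (2 of 40, 9.41% of all genes), followed by Psmd2 at 0.71 log2, and Psmb7 reached it downward (1 of 40, 8.78% of all genes), followed by Psme3 and Psmd3 at -0.98 and -0.77. On the deposited scale the members' median was 0.57, with 6 past 2-fold upward and 0 downward, but 22.3% of all genes were that much higher there (1439, with 167 lower, against 598 and 558 after normalization) and their median was 0.38. Relative to all genes the members stood at 0.16 after normalization and 0.18 as deposited.

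In Foxp3-fusion over GFP- CD25+ cells 7 of 40 members reached 2-fold upward (11.9% of all genes), namely Psma2, Psma7, Psmb1, Psmb5, Psmb10, Psmc1 and Psmd2. Psmb3 and Psmd9 reached it downward (2 of 40, 8.87% of all genes), followed by Psmc4 at -0.81 log2. The members' median was 0.30, against -0.12 over all genes, of which 1520 were higher and 198 lower as deposited and 759 and 564 after normalization. In Foxp3-null over GFP- CD25+ cells Psmb5, Psmb7, Psmb10, Psmc1 and Psme1 (5 of 40, 9% of all genes) were past 2-fold upward and Psma4, Psmb3 and Psmd9 downward (3 of 40, 7.99%). The median there was 0.43, against 0.11 over all genes. Psmb7 was measured only through the GFP+ arrays, so its direction here too was fixed by the filter. Since these comparisons share arrays with the ones above, they are no separate evidence.

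**Figure D2:**
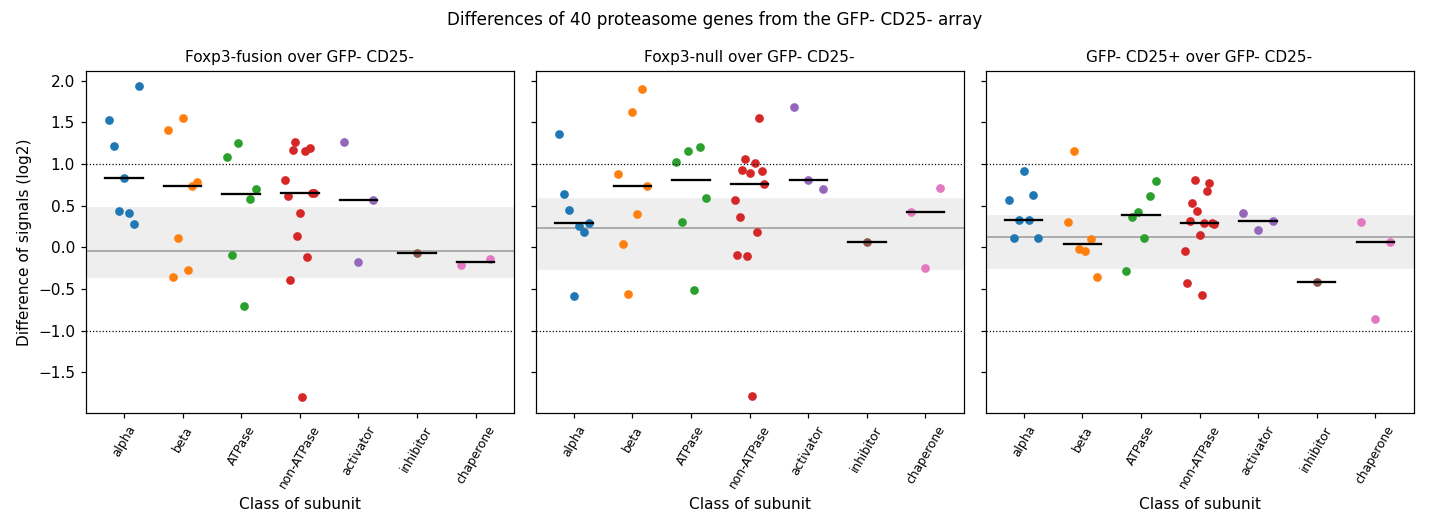
Log2 difference of signals (y axis) of the measured proteasome genes from the GFP- CD25- array by class of subunit (x axis), in Foxp3-fusion, Foxp3-null and GFP- CD25+ cells. Each point is a gene with at least 1 of both arrays above the floor, black bars are class medians, the grey line and band are the median and the interquartile range of all measured genes, and dotted lines mark 2-fold. In the Foxp3-fusion panel 12 genes lie above the upper dotted line (10.5% of all measured genes) and Psmd9 lies alone below the lower one (5.91%).

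Among the 7 measured alpha subunit genes, 3 were past 2-fold upward in Foxp3-fusion over GFP- CD25- cells (10.5% of all measured genes). Psma7 read 8.11 log2 in Foxp3-fusion cells, 6.46 in Foxp3-null cells, 6.28 in GFP- CD25+ cells and 6.17 in GFP- CD25- cells. On this probe set its signal was thus high on the Foxp3-fusion array alone, 3.82-fold above GFP- CD25- and 3.13-fold above Foxp3-null cells. The next brightest probe set of Psma7 read 6.73, 5.84, 5.74 and 4.78 log2, with Foxp3-fusion 1.85-fold above Foxp3-null cells. Psma1 read 8.33, 8.16, 7.37 and 6.80 log2 in the same order. Here both GFP+ arrays were high, 2.90-fold above GFP- CD25- cells for Foxp3-fusion and 2.58-fold for Foxp3-null. Psma2 read 10.49, 9.92, 9.39 and 9.28 log2, with Foxp3-fusion cells 2.32-fold above GFP- CD25- cells. Psma4 had another order, with 7.08, 5.66, 7.16 and 6.24 log2, and its Foxp3-null signal was the lowest, 2.83-fold under GFP- CD25+ cells. On their brightest probe sets Psma3, Psma5 and Psma6, all above 10 log2 on every array, differed from GFP- CD25- cells by 0.18 to 0.63 log2.

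Beta subunits behaved unevenly, and the 3 standard proteolytic ones did so among themselves. Psmb5, which carries the chymotrypsin-like site, read 8.33 log2 in Foxp3-fusion cells, 8.40 in Foxp3-null cells, 6.72 in GFP- CD25+ cells and 6.77 in GFP- CD25- cells. Both GFP+ arrays stood clear of both GFP- arrays, at 2.94-fold over GFP- CD25- for Foxp3-fusion and 3.09-fold for Foxp3-null cells. Psmb7, with the trypsin-like site, read 5.89, 7.05, 5.10 and 5.06 log2. Its signal was under the floor in both GFP- populations, so that Foxp3-fusion cells were at least 1.67-fold and Foxp3-null cells at least 3.75-fold above either of them. Foxp3-fusion cells were 2.24-fold below Foxp3-null cells. Psmb6, with the caspase-like site, read 7.70, 8.36, 8.06 and 7.96 log2, and no pair of arrays differed by 2-fold.

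Psmb10 encodes the interferon-inducible subunit that replaces Psmb7. It read 8.07 log2 in Foxp3-fusion cells, 8.02 in Foxp3-null cells, 6.93 in GFP- CD25+ cells and 7.28 in GFP- CD25- cells, again with both GFP+ arrays on top. Over GFP- CD25+ cells it was 2.20-fold higher in Foxp3-fusion and 2.13-fold higher in Foxp3-null cells, and over GFP- CD25- cells 1.73-fold and 1.67-fold. Among the structural beta genes Psmb1 read 9.16, 8.63, 8.06 and 7.75 log2, with Foxp3-fusion cells 2.66-fold above GFP- CD25- cells. Psmb4 was near 12 log2 on every array but the Foxp3-null one, where it read 11.33. Psmb3 peaked in GFP- CD25+ cells, with 9.82 log2 in Foxp3-fusion, 10.21 in Foxp3-null, 11.33 in GFP- CD25+ and 10.18 in GFP- CD25- cells, and was 2.22-fold higher in GFP- CD25+ than in GFP- CD25- cells. Relative to GFP- CD25+ it was 2.84-fold lower in Foxp3-fusion cells. The second Psmb3 probe set did not exceed the floor on any array.

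**Figure D3:**
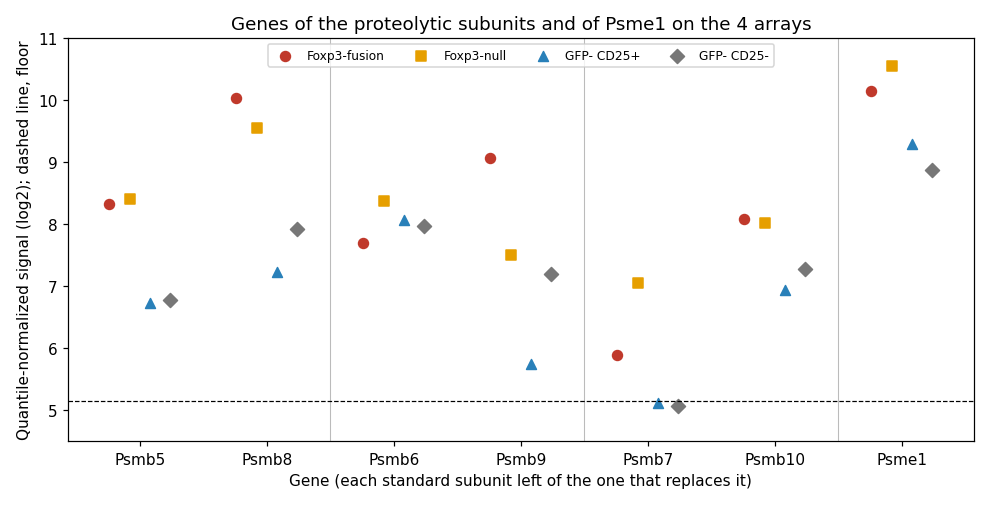
Quantile-normalized log2 signal (y axis) on each of the 4 arrays for the standard proteolytic subunit genes, for the inducible gene that can replace each, and for Psme1 (x axis). Points are single arrays and the dashed line is the floor of 5.15 log2. Both GFP+ arrays lie above both GFP- arrays for Psmb5, Psmb8, Psmb9, Psmb7, Psmb10 and Psme1, and not for Psmb6. For Psmb9 this order holds after normalization, and as deposited Foxp3-null lies -0.10 log2 from GFP- CD25-.

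The inducible subunits left out of the members by rule stood further apart. Psmb8, which replaces Psmb5, read 10.03 log2 in Foxp3-fusion cells, 9.54 in Foxp3-null cells, 7.22 in GFP- CD25+ cells and 7.91 in GFP- CD25- cells, and was 4.34-fold higher in Foxp3-fusion and 3.10-fold higher in Foxp3-null than in GFP- CD25- cells. Psmb9, which replaces Psmb6, read 9.07, 7.50, 5.75 and 7.20 log2. Foxp3-fusion cells were 3.66-fold above GFP- CD25- cells and 2.97-fold above Foxp3-null cells in this gene, and GFP- CD25+ cells were 2.73-fold below GFP- CD25- cells. Foxp3-null over GFP- CD25- cells differed by 0.30 log2 in Psmb9 after normalization and by -0.10 as deposited. Psmb8 and Psmb9 were lowest in GFP- CD25+ cells, as was Psmb10.

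Psme1 encodes an interferon-inducible subunit of the activator PA28. It read 10.14 log2 in Foxp3-fusion cells, 10.55 in Foxp3-null cells, 9.29 in GFP- CD25+ cells and 8.87 in GFP- CD25- cells. Both GFP+ arrays were above both GFP- arrays, with 2.40-fold for Foxp3-fusion and 3.21-fold for Foxp3-null over GFP- CD25- cells. Psme3, the subunit of the nuclear form of this activator, read 5.66, 6.64, 6.05 and 5.83 log2 in the same order, with Foxp3-fusion 1.97-fold below Foxp3-null cells. Psme4, which encodes the large activator PA200, stayed within 8.01 and 8.71 log2. The activator genes therefore had no common order of arrays, and the sign of their median over 3 genes changed with the rule for choosing probe sets.

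Of the 6 ATPase genes, Psmc1 and Psmc3 were past 2-fold upward in both GFP+ populations over GFP- CD25- cells after normalization. Of all measured genes, 10.5% were in Foxp3-fusion and 10.9% in Foxp3-null cells. As deposited the Foxp3-null differences of Psmc1 and Psmc3 were 0.66 and 0.79 log2, under 2-fold. Psmc1 read 8.29 log2 in Foxp3-fusion, 8.23 in Foxp3-null, 6.93 in GFP- CD25+ and 7.20 in GFP- CD25- cells, and Psmc3 read 8.44, 8.35, 7.62 and 7.19. For each of them the GFP+ arrays differed by less than 0.1 log2 from each other, and by 0.69 and 0.73 as deposited. The difference from GFP- CD25- cells was 2.13-fold and 2.38-fold in Foxp3-fusion cells. Psmc5 was highest in Foxp3-null cells, with 6.21, 6.84, 6.25 and 5.63 log2, or 2.31-fold above GFP- CD25- cells. As deposited this difference was 0.87 log2, under 2-fold. Psmc4 ran the other way, with 10.66, 10.85, 11.47 and 11.36 log2, and was 1.62-fold lower in Foxp3-fusion than in GFP- CD25- cells. Its second probe set went upward, by 0.65 log2 in Foxp3-fusion and 1.29 in Foxp3-null over GFP- CD25- cells, so the direction of Psmc4 depends on the probe set. On their brightest probe sets Psmc2, the brightest member, and Psmc6 differed by less than 2-fold between any pair of arrays.

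Of 13 measured Psmd genes, 4 were past 2-fold upward (10.5% of all measured genes) and 1 downward (5.91%) in Foxp3-fusion over GFP- CD25- cells. These counts include the chaperones of cap assembly described below, with Psmd5 and Psmd10 upward and Psmd9 downward. Psmd4, the ubiquitin receptor also called Rpn10, read 9.35 log2 in Foxp3-fusion, 9.10 in Foxp3-null, 8.72 in GFP- CD25+ and 8.18 in GFP- CD25- cells, with Foxp3-fusion cells 2.25-fold above GFP- CD25- cells. Psmd12, a lid subunit, read 7.76, 8.12, 7.34 and 6.57 log2, or 2.29-fold and 2.94-fold above GFP- CD25- cells in Foxp3-fusion and Foxp3-null cells. Psmd14, the deubiquitinase of the lid, was under 2-fold apart everywhere, with 10.45, 10.56, 10.08 and 9.80 log2. In all 3 the GFP- CD25- array was the lowest.

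Psmd5, Psmd9 and Psmd10 encode chaperones of cap assembly, and they had no common order of arrays. Psmd5 read 7.72 log2 in Foxp3-fusion, 7.51 in Foxp3-null, 7.27 in GFP- CD25+ and 6.45 in GFP- CD25- cells, and Psmd10, also called gankyrin, read 7.13, 6.98, 6.26 and 5.97. After normalization both were past 2-fold upward in each GFP+ population over GFP- CD25- cells, at 2.41-fold and 2.08-fold for Psmd5 and 2.23-fold and 2.02-fold for Psmd10. As deposited the Foxp3-null differences were 0.68 and 0.64 log2, under 2-fold. Psmd9 read 5.37, 5.38, 6.60 and 7.17 log2 and was the single member past 2-fold downward there, by 3.48-fold in Foxp3-fusion and 3.45-fold in Foxp3-null over GFP- CD25- cells. Its other 2 probe sets were under the floor on every array, so the gene rests on 1 dim probe set. The base and lid genes Psmd1, Psmd2, Psmd3, Psmd6, Psmd11 and Psmd13 were read on their brightest probe sets. There they differed from GFP- CD25- cells by less than 2-fold in each population, although for Psmd2 Foxp3-fusion cells were 2.07-fold above GFP- CD25+ cells. On its next brightest probe set Psmd13 was 1.59 log2 above GFP- CD25- cells in Foxp3-fusion and 1.72 in Foxp3-null cells. On theirs, Psmd6 was 1.41 log2 higher in Foxp3-fusion cells and Psmd11 1.55 log2 higher in GFP- CD25+ cells. Other differences of Psmd6, Psmd11 and Psmd13 from GFP- CD25- cells on these probe sets were under 2-fold. Psmd7 was under the floor in GFP- CD25- cells, and Foxp3-null cells were at least 1.86-fold above them.

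Psmf1 and the core assembly genes stayed under 2-fold after normalization. Psmf1 read 6.59 log2 in Foxp3-fusion, 6.73 in Foxp3-null, 6.24 in GFP- CD25+ and 6.66 in GFP- CD25- cells. Psmg1 read 6.77, 7.40, 7.27 and 6.97, and Psmg2 read 6.94, 6.83, 6.21 and 7.07 in that order. Psmg3 was above the floor in Foxp3-null cells at 5.87 log2 and near it elsewhere. The furthest apart was Psmg2, 1.82-fold lower in GFP- CD25+ than in GFP- CD25- cells, and as deposited that difference was -1.10 log2. Its second probe set was 0.35 log2 higher in GFP- CD25+ cells, so the direction of Psmg2 depends on the probe set.

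Read on the brightest probe set of each gene, members past 2-fold upward over GFP- CD25- cells on both GFP+ arrays had middle or low signal. None was among the 10 brightest. Of all genes that bright, 7.5% reached 2-fold upward in Foxp3-fusion and 7.11% in Foxp3-null cells. A count of 0 of 10 is near that share. This split by signal was made after the data were seen, and it depends on the probe set. On the next brightest probe set Psma5, Psma6, Psmb4, Psmc2 and Psmd6, all bright members, were past 2-fold upward in Foxp3-fusion cells. In Foxp3-null cells Psma6, Psmb4, Psmc2 and Psmc4 were. Psmc6 was in neither, and Psma3 was at least 2-fold lower in both. In Foxp3-fusion cells 0 of 10 members with a mean of 10 log2 or more were past 2-fold upward (7.5% of all genes of that signal), and their median was 0.21. Of 7 members between 8 and 10 log2, 4 were (10.8% of such genes), with a median of 1.17, and of 23 members under 8 log2, 8 were (11%), with a median of 0.77. In Foxp3-null cells the counts were 0 of 10 (7.11% of all genes of that signal), 1 of 7 (11.7%) and 9 of 23 (11.3%), with medians of 0.22, 0.71 and 0.81. The 9 include Psmb7, which was measured only through the GFP+ arrays. In GFP- CD25+ cells the counts were 1 of 10 (3.42%), 0 of 7 (5.18%) and 0 of 23 (4.1%), with medians of 0.35, 0.32 and 0.18, so there the 1 member past 2-fold, Psmb3, was among the brightest. Over all genes the medians in these 3 ranges of signal were -0.11, -0.04 and -0.04 for Foxp3-fusion and 0.03, 0.19 and 0.28 for Foxp3-null cells.

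**Figure D4:**
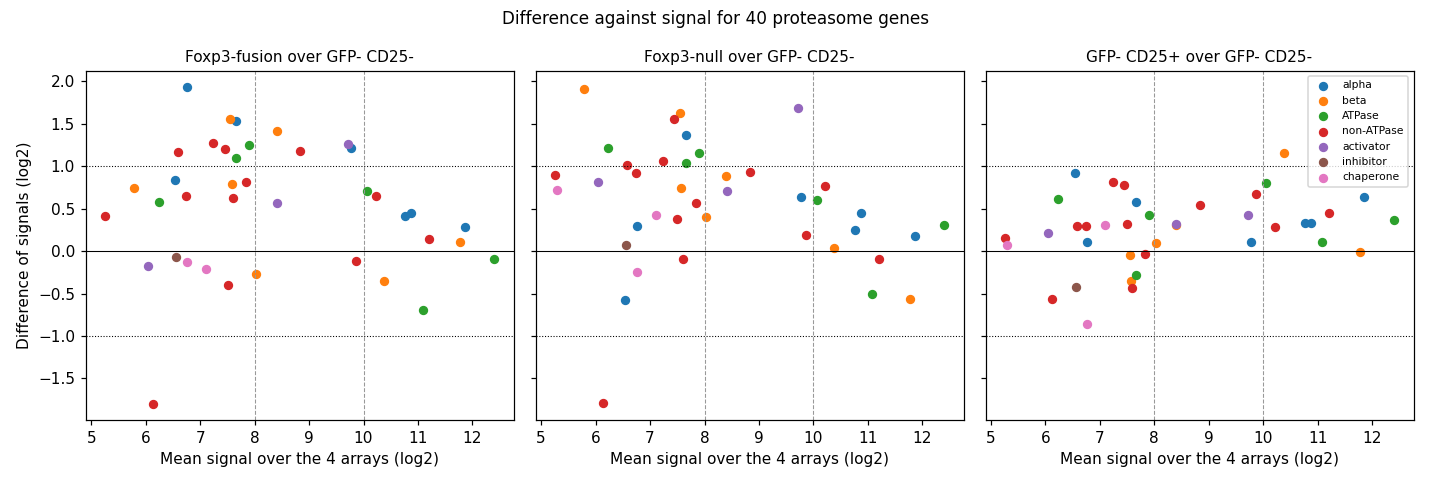
Log2 difference from the GFP- CD25- array (y axis) against the mean log2 signal over the 4 arrays (x axis) for the measured proteasome genes, coloured by class, in Foxp3-fusion, Foxp3-null and GFP- CD25+ cells. Dashed lines mark 8 and 10 log2 and dotted lines mark 2-fold. To the right of 10 log2, 0 of 10 genes, each read on its brightest probe set, reach 2-fold upward in either GFP+ panel. Of all genes of that signal, 7.5% in Foxp3-fusion and 7.11% in Foxp3-null cells do.

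The same gene gave different answers on different probe sets. Of 97 probe sets of the members 61 averaged above the floor, and 14 genes had a second one there besides the brightest. In Foxp3-fusion over GFP- CD25- cells 2 of these 14 genes were past 2-fold upward on the brightest probe set and 8 on the next brightest, with medians of 0.35 and 1.38 log2. In Foxp3-null cells the counts were 0 and 5 and the medians 0.27 and 0.80, and in GFP- CD25+ cells 0 and 1 and 0.33 and 0.35. Over all 2242 genes with such a second probe set the share at least 2-fold higher was 7.89% on the brightest and 12.0% on the next in Foxp3-fusion cells, and 8.12% and 9.55% in Foxp3-null cells. The second probe set had the same sign as the brightest in 9 of 14 genes for Foxp3-fusion and 7 of 14 for Foxp3-null cells.

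Psmb4 shows the contrast. Its brightest probe set read 12.00 log2 in Foxp3-fusion, 11.33 in Foxp3-null, 11.88 in GFP- CD25+ and 11.89 in GFP- CD25- cells, and its next read 9.15, 8.32, 7.22 and 7.03. The first put Foxp3-fusion 0.11 log2 above GFP- CD25- cells and the other 2.12 log2. For Psma6 the brightest read 11.87, 11.76, 12.22 and 11.58 and the next 9.73, 9.46, 8.51 and 7.84 log2. For Psmc2 the next brightest read 8.30, 7.73, 6.80 and 6.69 log2, and for Psmd6 7.59, 7.08, 6.77 and 6.18. On these 4 probe sets the arrays stood in one order, Foxp3-fusion, Foxp3-null, GFP- CD25+ and GFP- CD25-. The next brightest probe sets of Psma5, Psma7 and Psmd4 had this order too. Those of Psma3, Psmc4, Psmc6, Psmd11, Psmd13, Psme4 and Psmg2 did not. Psma3 and Psme4 had a second probe set that was at least 2-fold lower in both GFP+ populations, at 4.71, 4.79, 6.05 and 6.31 log2 for Psma3 and 6.22, 6.35, 7.12 and 7.50 for Psme4. The gaps of actin and Gapdh given above were smaller on both GFP+ arrays than on both GFP- arrays, and their part in these differences was not tested.

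**Figure D5:**
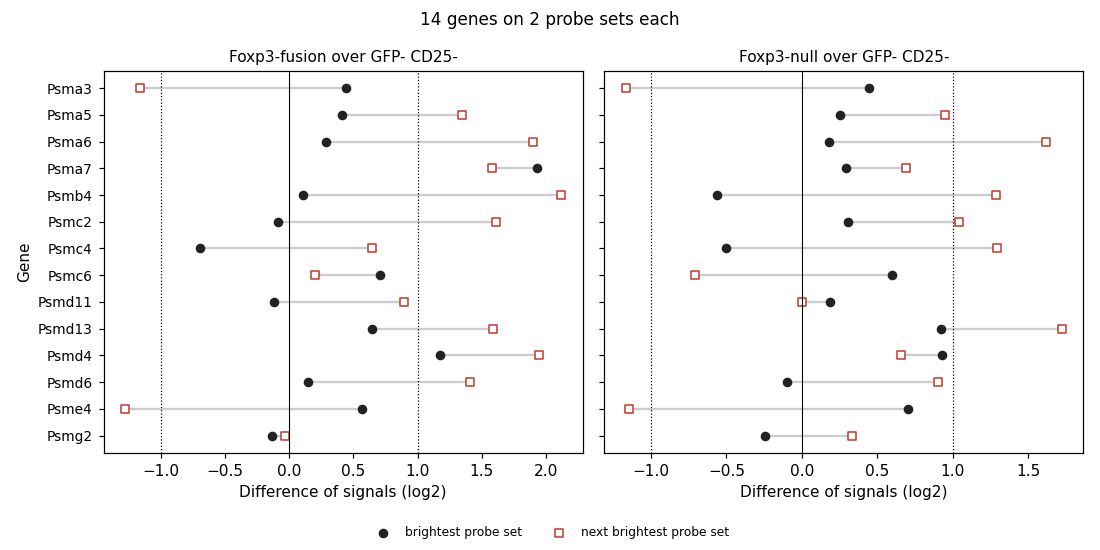
Log2 difference from the GFP- CD25- array (x axis) on the brightest (filled circles) and the next brightest probe set (open squares) of the 14 proteasome genes (y axis) for which both average above the floor, in Foxp3-fusion and Foxp3-null cells. Dotted lines mark 2-fold. In the Foxp3-fusion panel 2 filled circles and 8 open squares lie beyond the upper dotted line. Over all genes with such a second probe set, 7.89% and 12.0% do.

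Other large complexes were set beside the proteasome on the same arrays. The 41 measured genes of cytosolic ribosomal proteins had a median of 0.72 log2 in Foxp3-fusion over GFP- CD25- cells and 72 respiratory chain genes had 0.17, against 0.62 for the proteasome. In Foxp3-null over GFP- CD25- cells the medians were 0.53 and 0.56, against 0.62. The difference between these gene groups was not tested.

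Genes around the proteasome were read from a list of regulators, ubiquitin carriers and antigen-processing genes. Of 22 on the array 21 were measured. In Foxp3-fusion over GFP- CD25- cells 4 of 21 were past 2-fold upward (10.5% of all genes) and 1 downward (5.91%). Their median was 0.24, against -0.05 over all genes. Foxp3-null cells gave the same counts (10.9% and 8.04% of all genes) and a median of 0.30, against 0.23 over all genes. Besides Psmb8 and Psmb9, Vcp, the ATPase that extracts ubiquitinated proteins, read 9.75 log2 in Foxp3-fusion, 9.63 in Foxp3-null, 8.76 in GFP- CD25+ and 8.52 in GFP- CD25- cells. Ubqln1, which shuttles ubiquitinated proteins to the proteasome, read 9.31, 9.65, 7.98 and 8.07. Vcp and Ubqln1 were past 2-fold upward in each GFP+ population over GFP- CD25- cells after normalization. As deposited the Foxp3-null difference of Vcp was 0.80 log2, under 2-fold. The related Ubqln2 was high in Foxp3-null cells alone, at 7.75, 9.48, 7.19 and 8.02 log2.

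Ecpas, which encodes a proteasome adaptor also called Ecm29, had the opposite order, with 7.13 log2 in Foxp3-fusion, 5.51 in Foxp3-null, 9.68 in GFP- CD25+ and 8.43 in GFP- CD25- cells. It was 2.48-fold lower in Foxp3-fusion, 7.58-fold lower in Foxp3-null and 2.38-fold higher in GFP- CD25+ than in GFP- CD25- cells. Nfe2l1, the transcription factor known to induce proteasome genes, read 6.06, 6.54, 7.03 and 6.49 log2, and Pomp, the chaperone of core assembly, 8.02, 8.39, 7.57 and 7.92. Neither differed by 2-fold between any pair of arrays. Tap2 and Tapbp, of peptide transport and loading, were 2.35-fold and 2.14-fold lower in GFP- CD25+ than in GFP- CD25- cells, and Rad23b, another ubiquitin shuttle, was 2.04-fold higher. Bag6, a chaperone of proteins bound for degradation, reached 2-fold in Foxp3-null over GFP- CD25+ cells, at 1.01 log2.

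Promoter windows of RefSeq on GRCm38.p6, from 250 bases before to 50 after a gene's start, were available for 37 of the 45 members, in 39 windows. They were searched on both strands for TGANNNNGC, the core of the element bound by Nfe2l1 and related factors, and for CCAAT, the box bound by NF-Y. The first was in 21 of 39 member windows, or 53.8%, against 41.3% of all 32851 windows, and the CCAAT box in 13, or 33.3%, against 37.4%. Core genes had TGANNNNGC in 10 of 14 windows and 19S genes in 8 of 18. Measured members with TGANNNNGC had a median difference of 0.57 log2 in Foxp3-fusion over GFP- CD25- cells, and those without it 0.64, with 17 genes each. Past 2-fold upward were 4 genes with TGANNNNGC and 6 without it (10.5% of all measured genes). For CCAAT the medians were 0.87 in 12 genes with it and 0.58 in 22 without it, with 6 and 4 genes past 2-fold. Psmg3, with neither word, is counted in both groups without a match. Its signal was at the floor on both arrays, so it adds no value to their medians. A match is a description of letters and no binding site. The windows of 3 genes past 2-fold upward in both GFP+ populations over GFP- CD25- cells are shown because they hold different words, with matches in capitals. Psmb5 (chr14:54617946-54618245, minus strand) has TGANNNNGC alone, Psma1 (chr7:114276067-114276366, minus strand) CCAAT alone, and Psme1 (chr14:55578244-55578543, plus strand) neither.
Psmb5: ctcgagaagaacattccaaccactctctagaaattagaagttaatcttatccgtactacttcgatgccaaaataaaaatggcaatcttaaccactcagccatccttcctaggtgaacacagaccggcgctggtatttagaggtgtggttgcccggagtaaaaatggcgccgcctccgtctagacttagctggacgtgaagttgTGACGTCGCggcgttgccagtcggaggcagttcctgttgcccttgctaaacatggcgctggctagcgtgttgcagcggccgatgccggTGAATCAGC
Psma1: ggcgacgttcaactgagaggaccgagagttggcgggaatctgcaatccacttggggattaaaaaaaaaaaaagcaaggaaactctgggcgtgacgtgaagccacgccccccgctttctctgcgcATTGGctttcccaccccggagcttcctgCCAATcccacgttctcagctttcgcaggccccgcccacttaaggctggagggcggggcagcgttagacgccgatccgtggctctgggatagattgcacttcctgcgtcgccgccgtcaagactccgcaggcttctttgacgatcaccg
Psme1: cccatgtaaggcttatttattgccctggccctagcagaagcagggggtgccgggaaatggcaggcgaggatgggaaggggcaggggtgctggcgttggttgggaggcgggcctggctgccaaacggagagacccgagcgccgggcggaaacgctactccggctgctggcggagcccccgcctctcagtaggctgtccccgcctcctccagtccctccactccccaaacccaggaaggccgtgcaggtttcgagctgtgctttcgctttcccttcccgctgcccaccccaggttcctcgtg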

How the data were processed

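The submitters' table of log2 signals was used as deposited by the authors, 1 value per probe set and array for 45101 probe sets. The authors' background correction, summarisation and normalization are not given in the sources used here. That the values are log2 was read from their range. Per the labels' protocols, RNA passed 2 rounds of amplification. The 90th percentiles of the arrays differed (7.54 to 8.16), so the values, without 64 control probe sets, were quantile normalized over the 4 arrays with numpy 2.4.6 and pandas 2.3.3. GEO's platform annotation gave 1 symbol to 34945 probe sets, and 34741 of these matched RefSeq GRCm38.p6.

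For the floor, the 90th percentile over 59 probe sets of 31 genes chosen as silent in thymocytes was taken on each array, and the highest of the 4 was kept. Mbp, Ttn and Krt10 of that list had signal, and the floor without them, 4.36 log2, was an alternative added after the data were seen. A difference with both arrays at the floor was not taken. The 6 comparisons were all pairs of arrays. There was no test, since each population had 1 array, and a gene was counted at 2-fold. The text names members at least 2-fold apart, the 3 furthest in each direction, and a fixed set of catalytic, activator and ubiquitin receptor genes. The split by signal and the second probe sets were chosen after their values were seen. The members and gene lists were chosen with earlier results of these data known. Alternatives were the deposited scale, centring, no floor, other probe set rules and a 1.5-fold threshold. The scripts were tested on simulated data. Depth has no meaning for arrays, and their number limits the precision.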

Additional observations from a re-analysis of the deposited data

How the results depend on the processing

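Centring the arrays and the lower floor moved no count of members by over 1.5 times. The members' median was above 0 under each alternative in the comparisons with GFP- CD25- cells, while for Foxp3-fusion over Foxp3-null cells it was -0.01 as reported and 0.06 with centring. Shares in brackets are those of all measured genes under the same setting. With values as deposited, the members at least 2-fold higher were 6 in Foxp3-fusion over Foxp3-null cells (22.3%), 15 in Foxp3-fusion over GFP- CD25+ cells (23.5%) and 5 in Foxp3-null over GFP- CD25- cells (5.24%), and those lower were 0 (2.58%), 1 (3.06%) and, in GFP- CD25+ over GFP- CD25- cells, 1 (7.77%). The activator median in Foxp3-fusion over Foxp3-null cells was 0.17 as deposited and 0.32 with the median over probe sets, against -0.42. Without a floor, 4 members of 45 were higher in Foxp3-fusion over Foxp3-null cells (5.29%) and 2 in GFP- CD25+ over GFP- CD25- cells (1.93%).

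With the median over a gene's probe sets, 30 members were measured, and 5 were higher in Foxp3-fusion over Foxp3-null cells (9.24%) and 0 in GFP- CD25+ over GFP- CD25- cells (3.18%). Lower ones were 0 in Foxp3-fusion over GFP- CD25+ (4.3%), 0 over GFP- CD25- (3.23%) and 0 in Foxp3-null over GFP- CD25- cells (6.59%), and 1 in Foxp3-null over GFP- CD25+ cells (5.6%). Psmb3 gave 0.44 log2 in Foxp3-fusion over GFP- CD25+ cells there, a value averaged with a probe set under the floor on every array, so it says nothing about direction. Leaving out probe sets that may match several transcripts (30 members) gave 1 higher (11.2%) and 2 lower (6.56%) in Foxp3-fusion over Foxp3-null cells, 1 lower over GFP- CD25+ cells (6.72%), 3 lower over GFP- CD25- cells (5.75%) and 3 in Foxp3-null over GFP- CD25- cells (8.91%). The activator median there was -0.39 in Foxp3-fusion over GFP- CD25+ cells and -0.17 over GFP- CD25- cells, against 0.25 and 0.57 as reported. The cause of the other changes was not tested.

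At 1.5-fold the higher members of 40 were 20 in Foxp3-fusion over GFP- CD25- (20.7%), 21 in Foxp3-null over GFP- CD25- (24.8%), 8 in GFP- CD25+ over GFP- CD25- (14.7%), 4 in Foxp3-fusion over Foxp3-null (18.2%), 15 in Foxp3-fusion over GFP- CD25+ (22.2%) and 16 in Foxp3-null over GFP- CD25+ cells (22.2%). The lower ones that moved were 2 in Foxp3-fusion over GFP- CD25- (14.9%), 1 in GFP- CD25+ over GFP- CD25- (12%), 7 in Foxp3-fusion over Foxp3-null (25.2%) and 5 in Foxp3-fusion over GFP- CD25+ cells (21.8%). Of 45 differences of single members at least 2-fold in the values reported, 37 were so as deposited. The sign was the same in 45, but the change of scale is too small to turn a 2-fold difference around. With the median over a gene's probe sets 36 of them could be read. Of these 29 were still 2-fold apart and 35 had the same sign. No paired analysis was possible because each population had 1 array.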

Other observations

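Psmc3ip and Psme3ip1 match the letters of the rule but encode no proteasome subunit. Psme3ip1, whose product binds Psme3, read 7.18 log2 in Foxp3-fusion, 5.21 in Foxp3-null, 5.75 in GFP- CD25+ and 5.96 in GFP- CD25- cells, with Foxp3-fusion 3.93-fold above Foxp3-null cells. Psmc3ip, known for a role in meiotic recombination, read 5.83, 6.63, 6.57 and 5.78 log2 in the same order.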
